A study of Mus musculus with 8 samples.

Results

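Most of the genes described here encode parts of the moving core of motile cilia: axonemal dynein arms, radial spokes, the central apparatus, tektins and other doublet proteins. The rest are factors that assemble dynein arms, and 10 further genes taken because they are named for cilia and flagella. All were chosen by symbol. A gene was taken where its symbol in the array annotation starts with Dnah, Dnai, Dnaaf, Tekt, Rsph, Cfap or Spef followed directly by a digit, and Dnal1, Dnali1, Spag6, Spag16, Spag17, Hydin, Lrrc23, Lrrc6, Drc1, Ccdc39 and Ccdc40 were added by name. This gave 65 of 18193 measured genes, spread over 19 chromosomes with at most 9 on 1 of them. The rule itself uses symbols, and the brightest probe set stood for each gene, but the rule was written with earlier results of these data known.

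A motile cilium is a cell extension built on microtubule doublets arranged around a central apparatus. Outer and inner dynein arms on the doublets use ATP to slide them past each other, radial spokes and the nexin-dynein regulatory complex turn sliding into bending, and dynein arms are put together in the cytoplasm before they enter the cilium. Choroid plexus epithelial cells make cerebrospinal fluid and carry tufts of cilia, and the multiciliated state depends on transcription factors that include Foxj1 and the Rfx family.

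RNA came from the fourth ventricle's choroid plexus at embryonic day 13 and was read on 8 arrays. The 4 knockout-labelled arrays hold tissue of embryos from an Otx2-deficient strain, Otx2 being a homeodomain transcription factor of the forebrain and choroid plexus, and the 4 wildtype arrays hold tissue of littermates. Both groups have a mixed strain background, received no treatment, and were not sexed. The sources used here do not say how the deletion was made, where and when it acts, or how many embryos went into a sample, and p-values measure the spread between these samples. Values are log2 levels, so a difference of 1 is 2-fold, and each difference is knockout-labelled minus wildtype. The only probe set of Otx2 read 12.38, 12.46, 12.44 and 12.48 in the knockout-labelled arrays, against 12.00, 12.05, 11.97 and 11.85 in the wildtype arrays. It rose by 0.47 (SE 0.06, limma adjusted p = 0.000648), which goes against the label, and the sources used here do not place it relative to the deleted part. The groups are therefore called knockout-labelled and wildtype throughout.

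Transcripts for nearly every part of the axoneme were lower in the knockout-labelled choroid plexus. Of the 65 genes, 52 fell at an adjusted p under 0.05 (limma, Benjamini-Hochberg over all 18193 genes), 0 rose and 13 did not pass, while 11.7% of all genes fell and 7.84% rose. Unadjusted, 1 gene was higher at p under 0.05, Dnah12, and limma with array weights also called that gene higher. The median log2 fold change of the 65 genes was -0.65, and 62 of the 65 values were negative, in a range of -1.56 to 0.36. Over all genes the median was 0.00. Every knockout-labelled array lay under every wildtype array in 53 of the 65 genes, against 14.4% of all genes. The falls were mostly modest. Among the genes that fell, the values ran between -1.56 and -0.26, and 41 of the 65 genes had a value between -1.1 and -0.5. Falls of at least 2-fold were seen in 7 of the 65 genes (10.8%), compared with 1.16% of all genes.

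**Figure D1:**
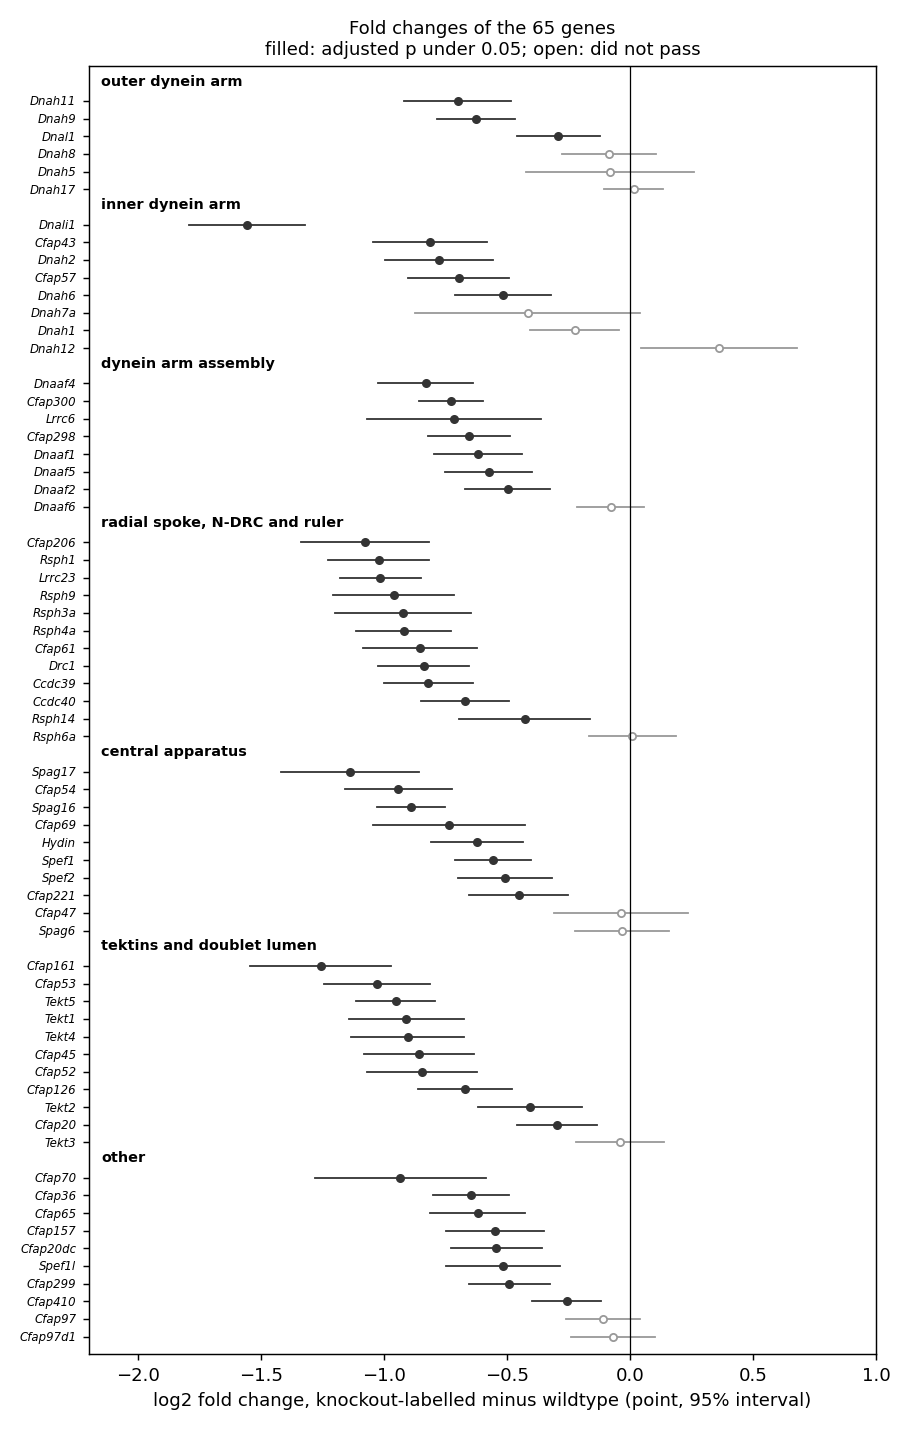
Log2 fold change, knockout-labelled minus wildtype, of each of the 65 genes on the x axis, with the 95% interval from limma, grouped by role down the page; filled points passed an adjusted p under 0.05 and open points did not. The 52 filled points all lie left of 0, and 10 of the 13 open ones do as well.

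These are whole-tissue samples, so fewer cells of a type and less RNA per cell cannot be told apart. Markers of several cell types also differed between the groups, in both directions. Of 17 measured markers of choroid plexus epithelium, 14 fell and 0 rose, with a median log2 fold change of -0.89, and their mean level was 10.18 to 10.38 in the knockout-labelled arrays, against 11.14 to 11.27 in the wildtype arrays. That mean lay above the median gene's level of 7.29 in all 8 arrays. Of 13 stromal and mural markers, 9 rose and 2 fell, and their mean level was 10.53 to 10.76 in the knockout-labelled arrays, against 10.19 to 10.22 in the wildtype arrays. Of 12 macrophage markers, 9 rose and 0 fell, and their mean level was 9.03 to 9.51 in the knockout-labelled arrays, against 8.41 to 8.64 in the wildtype arrays. Endothelial markers fell in 3 and rose in 1 of 9, 1 of 7 erythroid markers fell, and 0 of 12 neuronal markers passed in either direction. Over all genes, 11.7% fell and 7.84% rose. The erythroid share of falls (14.3%) and the single endothelial rise are near these shares. Detection calls were not analysed here, so no marker can be given as absent. The part of these shifts in the falls of the motile cilia genes was not tested.

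Rfx factors bind the X-box, a near-palindromic motif known from promoters of ciliary genes in worm and mammals. It was searched on both strands as GTNNCC, any 2 bases, then GGNAAC, in the RefSeq promoter windows (GRCm38.p6, 250 bases before to 50 after the gene's start), a form chosen after counts for several forms were seen. Of the 65 genes, 55 had a window, and 6 of these (10.9%) held the motif, compared with 1.91% of the 14368 measured genes with a window. Among genes that fell it was present in 5 of 43 windows (11.6%), and among those that did not pass in 1 of 12 (8.33%), the window of Dnaaf6. All 6 stretches are shown because they carry the full motif, each 74 bases long, 5′ to 3′ on the gene's strand, with the match in capitals. In Cfap206 and Dnaaf5 the letters match when read on the opposite strand, and in Tekt4 on the gene's own strand. In Cfap298, Cfap20dc and Dnaaf6 they match on both strands.
Cfap206: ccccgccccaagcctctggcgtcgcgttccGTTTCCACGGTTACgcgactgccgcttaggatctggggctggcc
Dnaaf5: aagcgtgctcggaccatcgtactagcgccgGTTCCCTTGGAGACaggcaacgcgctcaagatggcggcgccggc
Cfap298: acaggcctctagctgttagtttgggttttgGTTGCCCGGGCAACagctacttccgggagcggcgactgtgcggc
Tekt4: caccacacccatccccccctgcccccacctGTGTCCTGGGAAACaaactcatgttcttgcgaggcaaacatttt
Cfap20dc: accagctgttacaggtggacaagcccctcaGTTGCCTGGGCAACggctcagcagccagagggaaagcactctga
Dnaaf6: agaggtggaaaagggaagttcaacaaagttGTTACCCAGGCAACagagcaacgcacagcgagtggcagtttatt
These lie at chr4:34730186-34730259 (minus strand) for Cfap206, chr5:139150187-139150260 (plus strand) for Dnaaf5, chr16:90934994-90935067 (minus strand) for Cfap298, chr17:25471400-25471473 (plus strand) for Tekt4, chr14:8666349-8666422 (minus strand) for Cfap20dc and chr1:31222750-31222823 (plus strand) for Dnaaf6. The centre of the match lay 11 bases before the gene's start in Dnaaf5 and 16 bases before it in Cfap206, the nearest of the 6, and 181 bases before it in Cfap298, the farthest.

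Shorter motifs were counted in the same windows. The X-box arm GTTGCC, which also matches inside some full motifs, was found in 19 of the 55 windows (34.5%), compared with 14.7% of all genes with a window. The forkhead core TGTTTAC, which factors such as Foxj1 can bind, was found in 4 windows (7.27%), compared with 3.38% of all. Among genes that fell it was present in 2 of 43 windows (4.65%), and among those that did not pass in 2 of 12 (16.7%). The motif TAATCC, which Otx proteins bind, was found in 3 windows (5.45%), those of Cfap36, Dnah11 and Lrrc23, compared with 7.3% of all. These were 3 of the 43 windows of genes that fell (6.98%), and 0 of the 12 windows of genes that did not pass held it. A match describes letters in a window and is not a measured binding site.

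Outer dynein arms drive the beat frequency, and 3 of 6 measured genes fell, with a median log2 fold change of -0.19. Dnah11, an outer arm heavy chain of the cilium's proximal part, read 6.84, 7.11, 7.20 and 7.11 in the knockout-labelled arrays, against 7.59, 7.73, 7.86 and 7.88 in the wildtype arrays. Dnah9, the outer arm heavy chain of the distal part, read 8.26, 8.45, 8.52 and 8.33 in the knockout-labelled arrays, against 9.04, 9.004, 8.96 and 9.05 in the wildtype arrays. In both genes the groups were clear of each other. Dnah11 fell by 0.70 (SE 0.10, adjusted p = 0.000816) and Dnah9 by 0.63 (SE 0.07, adjusted p = 0.000272), or 1.63-fold and 1.54-fold lower. Dnal1, a light chain that binds an outer arm heavy chain, read 8.16, 8.11, 8.23 and 8.38 in the knockout-labelled arrays, against 8.42, 8.50, 8.53 and 8.61 in the wildtype arrays. Its groups nearly touch. It fell by 0.29 (SE 0.08, adjusted p = 0.0227), and leaving out a single array could end the call. Where the call was lost in this way, the log2 fold change stayed between -0.30 and -0.26. The adjusted p was 0.0645 without knockout-labelled replicate 1, and 0.0567, 0.0592 and 0.0692 without wildtype replicates 2, 3 and 4.

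The remaining outer arm heavy chains gave low signals with overlapping groups. Dnah8, known from sperm flagella, read 5.75, 6.01, 5.75 and 5.63 in the knockout-labelled arrays, against 5.78, 5.87, 5.89 and 5.93 in the wildtype arrays (log2 fold change -0.09, adjusted p = 0.568). Dnah5, the other main heavy chain of the outer arm in airway cilia, read 5.10, 5.18, 4.70 and 4.56 in the knockout-labelled arrays, against 4.87, 5.15, 5.12 and 4.74 in the wildtype arrays (log2 fold change -0.08, adjusted p = 0.780). Dnah5 was picked after its values were seen, because loss of it is a known cause of immotile cilia. Its single probe set read below the lower quartile of all genes (5.24). Dnah17 had a log2 fold change of 0.01 (adjusted p = 0.899).

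Inner dynein arms shape the waveform, and 5 of 8 genes fell, with a median of -0.61. The deepest fall among all 65 genes was in Dnali1, a light intermediate chain of the inner arms. It read 7.53, 7.96, 7.69 and 7.92 in the knockout-labelled arrays, against 9.32, 9.26, 9.26 and 9.49 in the wildtype arrays, a gap of over 1 log2 unit between the nearest arrays. Its mean was 7.78 ± 0.20 in the knockout-labelled arrays and 9.33 ± 0.11 in the wildtype arrays (n = 4 each, SD), a fall of 1.56 (SE 0.10, limma adjusted p = 1.70e-05) or 2.95-fold. Cfap43, which tethers an inner arm in the flagella of protists, read 7.62, 7.67, 7.94 and 8.05 in the knockout-labelled arrays, against 8.65, 8.72, 8.50 and 8.68 in the wildtype arrays, and fell by 0.81 (SE 0.10, adjusted p = 0.000515). Dnah2, an inner arm heavy chain, read 6.79, 6.85, 7.20 and 7.06 in the knockout-labelled arrays, against 7.88, 7.70, 7.67 and 7.76 in the wildtype arrays, and fell by 0.78 (SE 0.10, adjusted p = 0.000491). Cfap57 and the heavy chain Dnah6 also fell, with log2 fold changes of -0.70 and -0.52.

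Inner arm heavy chains that did not pass differed in their pattern. Dnah7a, one of a set of near-identical heavy chain genes whose probes may not be told apart, read 7.02, 7.43, 7.24 and 7.81 in the knockout-labelled arrays, against 7.77, 7.32, 7.88 and 8.20 in the wildtype arrays. Its groups overlapped (log2 fold change -0.42, SE 0.20, adjusted p = 0.202). The next 2 were picked after their values were seen. Dnah1 read 7.35, 7.29, 7.63 and 7.52 in the knockout-labelled arrays, against 7.65, 7.70, 7.66 and 7.69 in the wildtype arrays, so the groups did not overlap although the gene missed the threshold (log2 fold change -0.23, adjusted p = 0.0829). Dnah1 passed as lower in 4 of 16 alternative fits and not in the other 12. It passed without knockout-labelled replicate 3 (-0.29, limma adjusted p = 0.0299) and with the mean of its probe sets (-0.47, adjusted p = 0.00333). It also passed among genes above the median level (adjusted p = 0.0393) and after a second quantile normalization (adjusted p = 0.0383). Its second probe set, in a fit over all probe sets, was lower by more (-0.72, adjusted p = 0.00197). Dnah12 had the highest value of the 65 genes. It read 5.21, 5.08, 5.35 and 5.73 in the knockout-labelled arrays, against 4.82, 4.83, 5.16 and 5.12 in the wildtype arrays, with overlapping groups and a low signal. Its log2 fold change of 0.36 (SE 0.14) had an adjusted p of 0.113, and it passed as higher without knockout-labelled replicate 2 (0.45, adjusted p = 0.0494) and with the replicate number as a block (0.36, adjusted p = 0.0281).

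**Figure D2:**
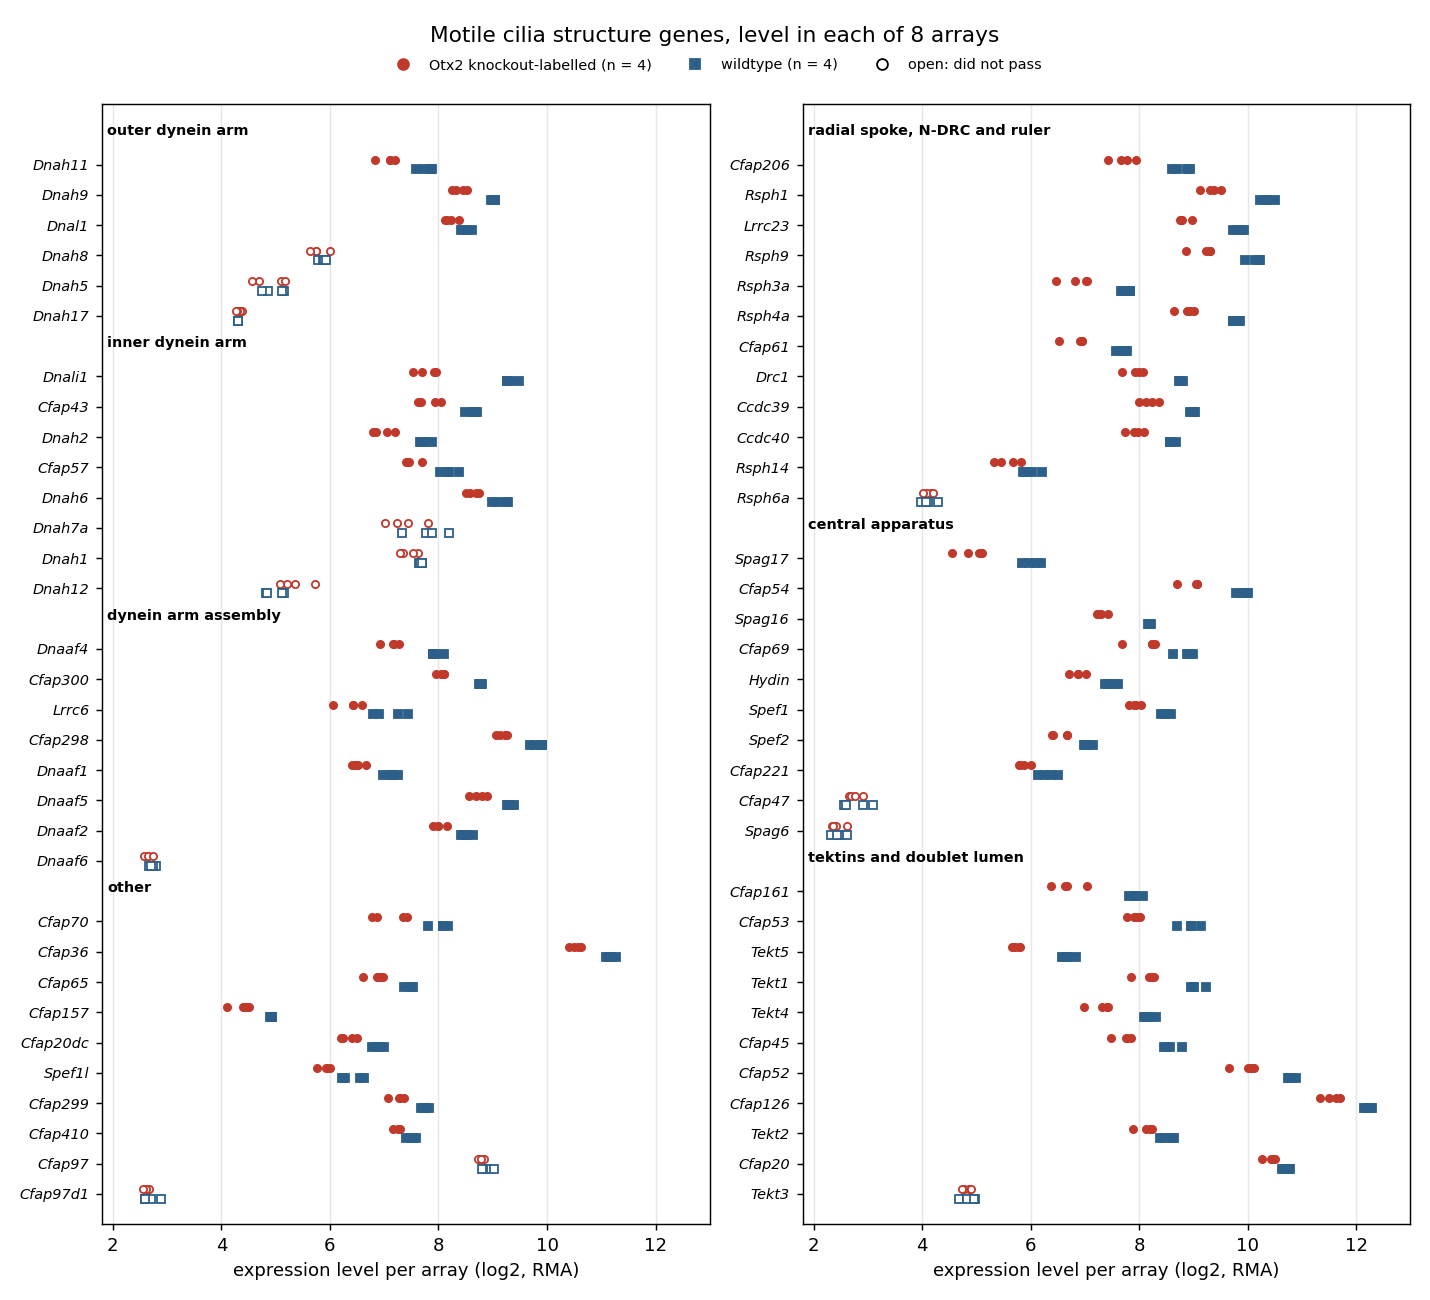
Log2 level (RMA) of each gene on the x axis in each of the 8 arrays, in rows grouped by role, with knockout-labelled arrays as circles above wildtype arrays as squares; open symbols mark genes that did not pass. The circles lie left of the squares without overlap in 53 of 65 rows, and most open rows sit at low levels.

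Factors that fold and assemble dynein arms in the cytoplasm fell in 7 of 8 genes, with a median of -0.64. Dnaaf4 read 6.92, 7.16, 7.18 and 7.27 in the knockout-labelled arrays, against 7.95, 7.91, 7.90 and 8.09 in the wildtype arrays, and fell by 0.83 (SE 0.09, adjusted p = 0.000162). Cfap300 read 7.95, 8.11, 8.10 and 8.04 in the knockout-labelled arrays, against 8.78, 8.80, 8.77 and 8.76 in the wildtype arrays, and fell by 0.73 (SE 0.06, adjusted p = 3.79e-05). Its arrays lay close together within each group, with an SD of 0.07 in the knockout-labelled arrays and 0.02 in the wildtype arrays. Lrrc6 was more spread, at 6.06, 6.42, 6.59 and 6.43 in the knockout-labelled arrays, against 6.79, 6.90, 7.43 and 7.25 in the wildtype arrays, and fell by 0.72 (SE 0.16, adjusted p = 0.0111). Cfap298, Dnaaf1, Dnaaf5 and Dnaaf2 also fell, with log2 fold changes of -0.66, -0.62, -0.58 and -0.50. For Dnaaf5 the mean over its 4 probe sets gave -0.12 (adjusted p = 0.306), since its 3 dimmer probe sets read -0.07, 0.01 and 0.16. Dnaaf6, whose window holds a full X-box, read 2.65, 2.57, 2.65 and 2.73 in the knockout-labelled arrays, against 2.67, 2.80, 2.74 and 2.70 in the wildtype arrays (log2 fold change -0.08, adjusted p = 0.440), at the dim end of the array.

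Radial spokes carry signals between the central apparatus and the dynein arms, and genes for spokes, the nexin-dynein regulatory complex and the molecular ruler that spaces them fell in 11 of 12 cases. Their median of -0.89 was the lowest of the 7 role groups. Cfap206, which anchors a spoke in the cilia of protists and whose promoter holds a full X-box, read 7.43, 7.77, 7.95 and 7.66 in the knockout-labelled arrays, against 8.70, 8.60, 8.88 and 8.93 in the wildtype arrays. It fell by 1.08 (SE 0.12, adjusted p = 0.000211), 2.11-fold. Rsph1, a spoke head protein, read 9.12, 9.50, 9.31 and 9.37 in the knockout-labelled arrays, against 10.31, 10.23, 10.35 and 10.50 in the wildtype arrays, and fell by 1.02 (SE 0.09, adjusted p = 7.21e-05), 2.03-fold. Lrrc23, another spoke protein, read 8.75, 8.97, 8.77 and 8.79 in the knockout-labelled arrays, against 9.81, 9.73, 9.93 and 9.88 in the wildtype arrays, and fell by 1.01 (SE 0.07, adjusted p = 2.41e-05), 2.02-fold. In all 3 genes the nearest arrays of the groups were clearly apart.

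Of the other 9 genes of this group, 8 fell. The spoke genes Rsph9, Rsph3a and Rsph4a had log2 fold changes of -0.96, -0.92 and -0.92, and Rsph3a has a near-identical neighbour in Rsph3b that its probes may also read. Cfap61, of a complex at the spoke base, and Drc1, the scaffold of the nexin-dynein regulatory complex, had -0.85 and -0.84. The ruler proteins Ccdc39 and Ccdc40, which act as a heterodimer, had -0.82 and -0.67. Rsph14 fell by 0.43 (adjusted p = 0.0316), and this call was lost without knockout-labelled replicate 1 (adjusted p = 0.0816) or 4 (0.0817) and without wildtype replicate 2 (0.0529), 3 (0.0797) or 4 (0.0874). Rsph6a, a spoke head protein known from sperm, was the gene that did not pass. It read 4.16, 4.09, 4.19 and 4.02 in the knockout-labelled arrays, against 3.97, 4.11, 4.07 and 4.28 in the wildtype arrays (log2 fold change 0.01, adjusted p = 0.962).

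Central apparatus genes fell in 8 of 10 cases, with a median of -0.59. Spag17, a large scaffold of a central microtubule's projection, read 4.85, 4.56, 5.10 and 5.04 in the knockout-labelled arrays, against 5.96, 6.10, 5.85 and 6.20 in the wildtype arrays. It fell by 1.14 (SE 0.12, adjusted p = 0.000228), 2.20-fold, despite a low signal. Cfap54 read 8.70, 9.06, 9.07 and 9.05 in the knockout-labelled arrays, against 9.87, 9.99, 9.78 and 10.01 in the wildtype arrays, and fell by 0.94 (SE 0.10, adjusted p = 0.000162). Spag16 read 7.22, 7.42, 7.30 and 7.24 in the knockout-labelled arrays, against 8.17, 8.16, 8.18 and 8.22 in the wildtype arrays, and fell by 0.89 (SE 0.06, adjusted p = 2.14e-05). Both encode central apparatus proteins, and knockout-labelled and wildtype arrays lay well apart. Cfap69, Hydin, Spef1, Spef2 and Cfap221 also fell, between -0.74 for Cfap69 and -0.45 for Cfap221. Hydin, loss of which causes hydrocephalus in mice, had -0.62. Cfap47 did not pass, at 2.66, 2.69, 2.76 and 2.91 in the knockout-labelled arrays, against 2.56, 2.60, 2.91 and 3.10 in the wildtype arrays (log2 fold change -0.04, adjusted p = 0.881). Spag6 had -0.03 at a mean level of 2.45, and its paralogue Spag6l may share sequence with it.

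Tektins and other proteins inside the doublet microtubules stabilise the axoneme, and 10 of 11 genes fell, with a median of -0.86. Cfap161, a protein of the doublet lumen, read 6.38, 7.04, 6.63 and 6.67 in the knockout-labelled arrays, against 7.81, 7.93, 7.93 and 8.08 in the wildtype arrays, and fell by 1.26 (SE 0.13, adjusted p = 0.000152), 2.39-fold. Cfap53, loss of which disturbs left-right asymmetry, read 7.78, 7.90, 8.01 and 7.95 in the knockout-labelled arrays, against 8.70, 8.96, 8.95 and 9.15 in the wildtype arrays, and fell by 1.03 (SE 0.10, adjusted p = 9.13e-05), 2.04-fold. Tekt5 read 5.81, 5.65, 5.70 and 5.79 in the knockout-labelled arrays, against 6.59, 6.70, 6.65 and 6.84 in the wildtype arrays, and fell by 0.95 (SE 0.07, adjusted p = 2.82e-05). Knockout-labelled and wildtype arrays were separate in each of these genes. Tekt1, Tekt4, Cfap45 and Tekt2 also fell, with log2 fold changes of -0.91, -0.90, -0.86 and -0.41, and Tekt4 is among the genes with an X-box printed above. Tekt3 did not pass, at 4.87, 4.78, 4.90 and 4.73 in the knockout-labelled arrays, against 4.68, 4.83, 4.98 and 4.96 in the wildtype arrays (log2 fold change -0.04, adjusted p = 0.790).

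Doublet proteins also gave some of the brightest signals of the 65 genes. Cfap126, also known as Flattop, read 11.34, 11.71, 11.63 and 11.51 in the knockout-labelled arrays, against 12.14, 12.25, 12.20 and 12.28 in the wildtype arrays, and fell by 0.67 (SE 0.08, adjusted p = 0.000495). Cfap52 read 9.66, 10.01, 10.12 and 10.06 in the knockout-labelled arrays, against 10.75, 10.77, 10.82 and 10.90 in the wildtype arrays, and fell by 0.85 (SE 0.10, adjusted p = 0.000349). Cfap20, a conserved inner junction protein of the doublet, gave a smaller value. It read 10.44, 10.26, 10.48 and 10.50 in the knockout-labelled arrays, against 10.63, 10.68, 10.77 and 10.79 in the wildtype arrays, and fell by 0.30 (SE 0.07, adjusted p = 0.0176). This call was lost without wildtype replicate 3 (adjusted p = 0.0531) or 4 (0.0559).

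Of 10 further genes named for cilia and flagella, 8 fell, with a median of -0.53. Cfap70, linked to outer dynein arms, read 6.87, 6.77, 7.43 and 7.34 in the knockout-labelled arrays, against 7.81, 8.08, 8.08 and 8.17 in the wildtype arrays, and fell by 0.93 (SE 0.15, adjusted p = 0.00233). Cfap36 read 10.41, 10.62, 10.50 and 10.57 in the knockout-labelled arrays, against 11.09, 11.14, 11.28 and 11.18 in the wildtype arrays, and fell by 0.65 (SE 0.07, adjusted p = 0.000202). Cfap65, known from sperm flagella, read 6.61, 6.87, 6.92 and 6.98 in the knockout-labelled arrays, against 7.47, 7.53, 7.37 and 7.50 in the wildtype arrays, and fell by 0.62 (SE 0.09, adjusted p = 0.000869). In each of the 3 the groups stood apart. Cfap157, Cfap20dc, Spef1l and Cfap299 also fell, between -0.55 and -0.49. Cfap410 fell by 0.26 (adjusted p = 0.0181), the smallest fall of all, and lost its call without wildtype replicate 2 (adjusted p = 0.0629) or 4 (0.0548). Cfap97, whose fly relative hemingway acts in sperm and sensory cilia, did not pass at 8.85, 8.75, 8.73 and 8.79 in the knockout-labelled arrays, against 8.90, 8.83, 8.80 and 9.02 in the wildtype arrays (log2 fold change -0.11, adjusted p = 0.317). Cfap97d1, its relative, had -0.07.

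Genes that did not pass were mostly those with a dim probe set. A probe set's signal depends on its probes as well as on the transcript, so levels are used here only to sort genes. Of the 42 genes at or above the median gene's level (7.29), 39 fell (92.9%), compared with 16.8% of all genes above it. Of the 23 below it, 13 fell (56.5%), compared with 6.62% of all genes below it. Below the lower quartile of all genes (5.24) there were 10 of the 65, of which 1, Cfap157, fell (10%), compared with 2.62% of all genes there. The 3 genes above the median level that did not pass were Dnah7a, Dnah1 and Cfap97, all described above.

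**Figure D3:**
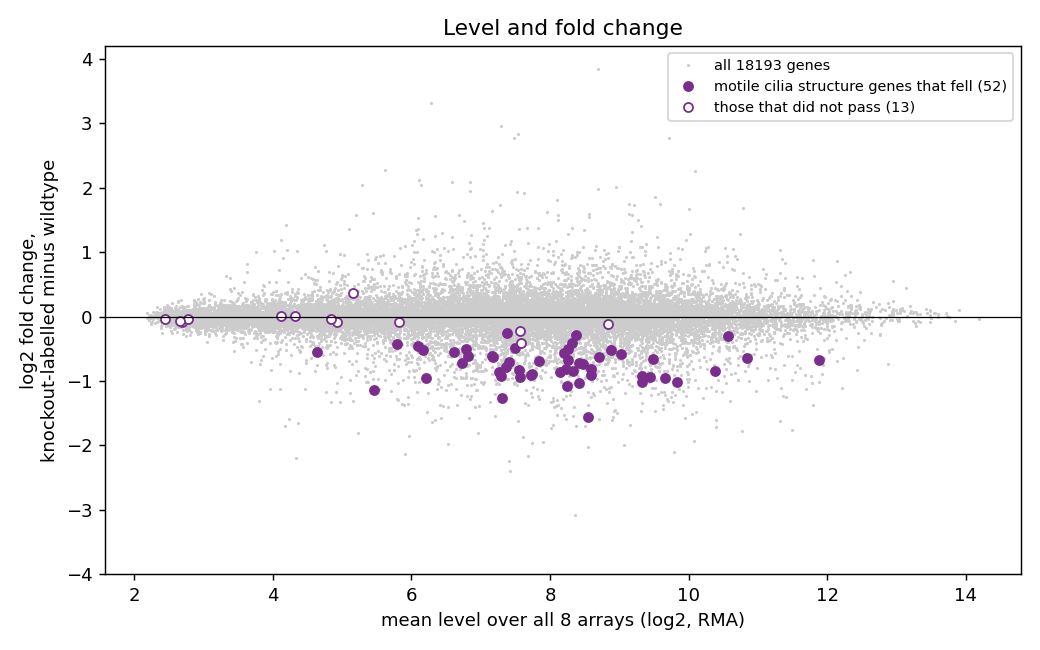
Log2 fold change, knockout-labelled minus wildtype, on the y axis against mean level over all 8 arrays (log2, RMA) on the x axis, for all 18193 genes in grey and the 65 motile cilia structure genes in purple. The 52 filled points lie below 0 across the range, and most of the 13 open points sit at the left, where all genes show small differences.

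Further probe sets of the same genes gave a partial repeat of the measurement within the same arrays. The 65 genes had 109 probe sets, with 30 genes read by several. Of the 44 dimmer ones, in a fit over all probe sets, 19 were lower, 0 higher and 25 did not pass, and 24 of those 25 had a level below the median gene's. Of 27 genes that fell and had several, 14 had another lower probe set and 0 had a higher one. Some dimmer probe sets showed the larger differences. In Spef2 the brightest gave -0.51 and the others -1.21 and -1.15, and in Spag17 the brightest gave -1.14 and the other -1.37. In Dnali1 it was the other way round, with -1.56 in the brightest and -1.10 in the other. Ccdc39 gave -0.82, -0.87 and -0.79 over its 3 probe sets. Spef2, Spag17, Dnali1 and Ccdc39 were picked here after their values were seen.

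The falls were seen in each knockout-labelled array and were deepest in replicate 1. Averaged over the 65 genes, the level was 6.97, 7.15, 7.17 and 7.16 in the knockout-labelled arrays, against 7.66, 7.69, 7.71 and 7.82 in the wildtype arrays. Over the 52 genes that fell, the median distance from the wildtype mean was -0.91 in knockout-labelled replicate 1, and -0.67, -0.65 and -0.69 in replicates 2, 3 and 4. Knockout-labelled replicate 1 was the lowest of its group in 41 of the 65 genes. This was not particular to the 65 genes. The mean of the choroid epithelium markers was also lowest in replicate 1 (10.18, other knockout-labelled arrays 10.32 to 10.38). So was the mean of the other motile cilium genes described below (7.41, others 7.65 to 7.69). Array medians over all probe sets lay between 5.85 and 5.90. Without that array, 50 of the 65 genes fell and the median was -0.60. The knockout-labelled arrays were also the more variable group, with an SD above that of the wildtype arrays in 49 of the 65 genes (75.4%), compared with 63.6% of all genes.

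**Figure D4:**
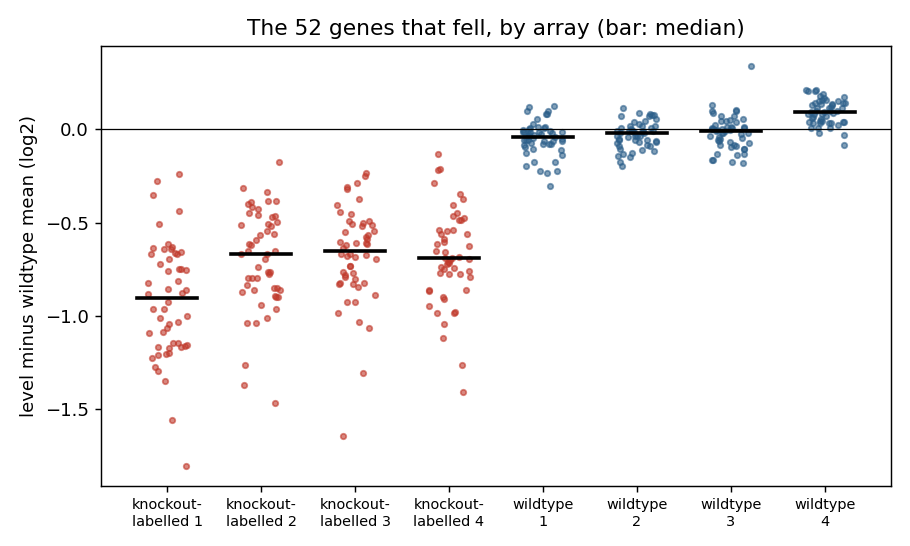
Level minus the wildtype mean (log2) on the y axis for each of the 52 genes that fell, in each knockout-labelled array and then each wildtype array on the x axis, with a bar at the median. The medians are -0.91, -0.67, -0.65 and -0.69 in the knockout-labelled arrays and between -0.04 and 0.10 in the wildtype arrays.

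Motile cilium genes outside the symbol rule showed a like pattern. Of 95 such genes, listed from general knowledge but with earlier results of these data known, 72 were measured. Of these, 66 fell (91.7%) and 0 rose, compared with 11.7% and 7.84% of all genes. Their median was -0.78, with values from -1.37 to -0.03. Those with the smallest p were Ak8, an adenylate kinase of the axoneme (-0.997, adjusted p = 1.88e-05), Wdr78, an intermediate chain of an inner dynein (-0.96, adjusted p = 1.94e-05), and Ccdc113, a ciliary coiled-coil protein (-0.94, adjusted p = 2.91e-05). Their promoter windows held the full X-box in 5 of 57 cases (8.77%, compared with 1.91% of all genes with a window). The arm GTTGCC was found in 27 of the 57 (47.4%, compared with 14.7%). The forkhead core was found in 3 (5.26%, compared with 3.38%), and TAATCC in 7 (12.3%, compared with 7.3%). Whether this list and the 65 genes differ in their falls was not tested.

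Cytoplasmic dynein-1 and dynactin, which move cargo along microtubules in all cells and share the motor's general build but not its place, gave a different count. Of 17 measured genes 3 fell (17.6%) and 1 rose, compared with 11.7% and 7.84% of all genes. Their median was 0.00, and the difference from the axonemal genes was not tested. Dync1i1, an intermediate chain enriched in neurons, read 7.18, 7.33, 7.72 and 7.49 in the knockout-labelled arrays, against 8.58, 8.86, 9.04 and 8.74 in the wildtype arrays. It fell by 1.38 (SE 0.13, adjusted p = 9.47e-05), well apart from the rest of its list. The light chain gene Dynlt3 fell by 0.30 (adjusted p = 0.0223) and the dynactin subunit gene Dctn3 by 0.22 (adjusted p = 0.0406). The gene that rose was Dync1li2, a light intermediate chain, at 0.20 (adjusted p = 0.0409), picked after its value was seen. Dynein-2, the motor of retrograde transport inside cilia, fell in 5 of 5 genes with a median of -0.46, and 1 of them, Tctex1d2, is also counted in the list above.

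Regulators of motile cilia fell in 8 of 14 measured genes (57.1%), compared with 11.7% of all genes, with a median of -0.41. The Rfx genes of this list were mixed. Rfx3 (-0.63) and Rfx2 (-0.41) fell, while Rfx1 (-0.19) and Rfx4 (0.46) did not pass. Foxj1, the forkhead activator of motile cilium genes, read 9.56, 10.08, 10.08 and 10.02 in the knockout-labelled arrays, against 10.82, 10.90, 11.06 and 10.89 in the wildtype arrays, and fell by 0.99 (SE 0.12, adjusted p = 0.000394). As with the structural genes, replicate 1 was the lowest array. Deup1, of the deuterosome that multiplies centrioles, and Ccno, a cyclin-like protein of the same step, fell by 2.00 (adjusted p = 3.55e-05) and 1.95 (adjusted p = 3.69e-05). Trp73, a transcription factor of multiciliated cells, fell by 1.06 (adjusted p = 6.83e-06).

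**Figure D5:**
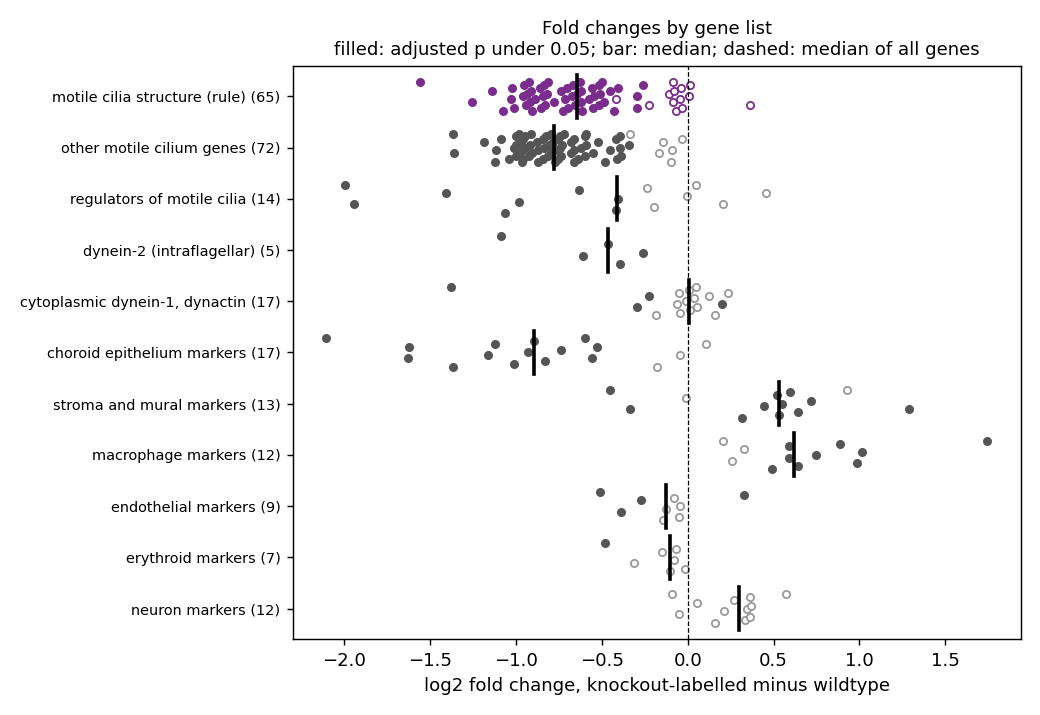
Log2 fold change, knockout-labelled minus wildtype, on the x axis for each measured gene of 11 lists down the page, with the number of genes in brackets; filled points passed an adjusted p under 0.05, bars mark list medians and the dashed line the median of all genes. The medians are -0.65 for the 65 genes and -0.78 for other motile cilium genes, and 0.00 for cytoplasmic dynein-1 and dynactin.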

How the data were processed

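Total RNA of 8 choroid plexus samples was amplified, labelled with biotin and hybridised to expression arrays. The deposited values are log2 levels per probe set that the authors made with RMA, per the submitters' processing notes, and the sources used here do not name its software version. RMA brings the arrays to a common distribution, so a change in total RNA per cell cannot be seen, and the number of arrays limits the precision. Of 45101 probe sets, 64 were controls, and the platform annotation gives 1 gene for 34945, several for 932 and none for 9160. Each of 18193 genes was represented by the probe set with the highest mean over the 8 arrays. All 65 genes matched the RefSeq gene table (GRCm38.p6) by identifier, with the same symbol.

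Genotype was the only term of a two-sided test in limma 3.58.1 (functions lmFit and eBayes, run in R 4.3.3). No filter on dim genes was used, and p-values were adjusted over all genes (Benjamini-Hochberg). Each adjusted p of a gene comes from this fit unless another fit is named beside it. The procedure was tested on simulated data. The genes, lists and tests were chosen with earlier results of these data known. Per-array values were given, in each role group, for up to 3 called genes with the largest change and the brightest gene that did not pass, for any gene that rose, and for the 5 brightest genes. From other lists, up to 3 called genes with the smallest p were named, with Foxj1 and Otx2 added to the rule by name. Genes outside this rule are given by ranges or log2 fold changes, with adjusted p-values where leaving out an array ended the call (Rsph14, Cfap410), and others given in more detail are said to be picked after their values were seen.

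Same-numbered arrays of the groups deviated together (correlations of 0.131, 0.232, 0.160 and 0.223 across genes, each above the limit of 0.1), so the number was treated as pairing them in a check. Differently numbered arrays ranged from -0.296 to 0.294, knockout-labelled replicate 3 with wildtype replicate 4 being the highest of all, and no label says what the number marks. Other alternatives were each array left out, array weights, a trended prior, other probe set rules, a filter on dim genes, other scalings and stricter thresholds.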

Additional observations from a re-analysis of the deposited data

Results flagged for a closer look

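The 65 genes, their mean and each role group's mean were searched for an array far from the other 3 of its group. The measure was the gap to the nearest array relative to the group's range (Dixon's 95% limit). Genes outside the 65 were not searched. Of 146 groups searched 8 passed, and chance alone passes about 1 in 20. Knockout-labelled replicate 1 stood low in 5 of them. It read 6.52 in Cfap61, with the other knockout-labelled arrays at 6.91 to 6.96, 8.70 in Cfap54 (others 9.05 to 9.07) and 7.69 in Cfap69 (others 8.23 to 8.29). Its mean was 6.97 over the 65 genes (others 7.15 to 7.17) and 7.86 over the tektin and doublet lumen genes (others 8.08 to 8.10). Wildtype replicate 4 stood high in the other 3. It read 8.80 in Drc1 (others 8.74), 8.68 in Ccdc40 (others 8.56 to 8.57) and 9.22 in Tekt1 (others 8.96 to 9.002).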

How the results depend on the processing

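Of the 52 falls, 47 kept their call under each alternative to the data or the fit that tested them (16 alternatives for 33 genes, and 15 for 14 genes that a filter on dim genes or shared probe sets left out), and none changed sign. With the replicate number as a block, 52 of the 65 genes fell and 1 rose, Dnah12, which was also called higher with array weights (1 rose); the block changed no other call among the 65. Leaving out each array in turn, 48 to 53 fell, 0 to 1 rose, the median log2 fold change was -0.67 to -0.60, and 65 to 67 of the 72 other motile cilium genes fell. The median was -0.51 with the mean of all probe sets per gene and -0.76 over the 42 genes above the median level, where fewer genes are counted. At an adjusted p under 0.01, 46 of the 65 fell (7.41% of all genes), and with a fall of at least 1.5-fold as well as the call, 37 (4.22% of all genes). Levels near the dim end limit what the 10 genes below the lower quartile can show.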

Other observations

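Some close relatives of the 65 genes fall outside the symbol rule because the annotation uses other names or gives a probe set to several genes. All were picked after their values were seen. Dnaic1 and Dnaic2, the outer arm intermediate chains, read 7.60, 7.86, 7.72 and 7.75 for Dnaic1 in the knockout-labelled arrays, against 8.76, 8.60, 8.85 and 8.86 in the wildtype arrays, and 7.20, 7.29, 6.95 and 6.12 for Dnaic2 in the knockout-labelled arrays, against 8.11, 6.67, 7.97 and 7.47 in the wildtype arrays. Dnaic1 fell by 1.03 (SE 0.08, limma adjusted p = 3.70e-05), a larger change than in any outer arm gene under the rule. Dnaic2 had overlapping groups and did not pass (-0.67, SE 0.34, adjusted p = 0.221). Spag6l, the ciliary paralogue of Spag6, fell by 0.96 (SE 0.10, adjusted p = 0.000202).

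The annotation gives 4 probe sets to several genes with a relative of this kind among them. The one shared by Dnah7c and Dnah7b read 7.75, 7.68, 7.95 and 8.11 in the knockout-labelled arrays, against 8.43, 8.40, 8.20 and 8.44 in the wildtype arrays, without overlap. The one shared by Rsph3b and Rsph3a read 10.52, 10.75, 10.71 and 10.68 in the knockout-labelled arrays, against 11.11, 11.13, 11.07 and 11.17 in the wildtype arrays, also without overlap. The one shared by Gm16201 and Spef1l read 4.58, 4.81, 4.83 and 4.62 in the knockout-labelled arrays, against 4.94, 5.28, 5.34 and 5.32 in the wildtype arrays, without overlap. The one shared by Dnaaf2 and the ribosomal protein genes Rpl36al and Rpl36a read 11.93, 11.86, 11.94 and 11.99 in the knockout-labelled arrays, against 11.87, 11.86, 11.88 and 11.96 in the wildtype arrays, with overlapping groups and a mean difference of 0.04. Probe sets with several genes were left out of the fit, so these differences were not tested.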
